A study of Saccharomyces cerevisiae with 12 samples.

Results

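The small subunit processome genes are 47 yeast genes for assembly factors of the small ribosomal subunit, and all 47 were measured among 5449 genes tested. They were chosen by name, and each was read by the probe set that the platform annotation gives to its symbol. Each of the 47 had 1 probe set, of the kind designed for 1 transcript. DBP4 is listed there under its other symbol HCA4.

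The processome is a large particle that forms on the nascent precursor of ribosomal RNA, around the U3 small nucleolar RNA. It holds the precursor while the cuts are made that release the RNA of the small subunit, and RNA helicases then take it apart. In yeast its genes belong to the ribosome biogenesis regulon, which is read strongly in fast growth and turned down in many stresses.

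Transcript levels were measured on 12 Affymetrix arrays of total RNA from Saccharomyces cerevisiae of the BY4741 background, in 4 groups of 3 arrays. The groups were a pat1 mutant with Congo Red at 30 µg/ml for 2 h, the pat1 mutant without drug, the wild type with Congo Red at 30 µg/ml for 2 h, and the wild type without drug. Congo Red is a dye that binds cell wall chitin and glucan. Pat1 binds deadenylated mRNA and promotes its decapping. Each of 3 biological samples per strain gave 1 array with drug and 1 without, so the drug effect was read within a sample. The labels name the mutant only as pat1 and do not say how the allele was made or whether the samples were separate clones, so p-values measure the spread between these samples.

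All values are log2 signals as deposited, made with RMA. PAT1 gave 2.95 to 3.94 on the pat1 arrays and 10.50 to 10.93 on the wild type arrays, so the strain labels held on every array. LEU2 and MET17, which BY4741 lacks, gave 2.95 to 4.2. HIS3, whose allele in this background is an internal deletion, gave 10.53 to 11.18 on all 12 arrays, and where its probes lie was not checked. URA3, which BY4741 also lacks, gave 6.76 on pat1 array 1 without drug and 7.71 on wild type array 2 with Congo Red, against 2.94 to 3.27 on the other 10. Median signals over all genes were 9.53 to 9.70 per array, the highest on pat1 array 3 with Congo Red. Bulk RNA cannot tell apart fewer cells that express a gene and less RNA of it per cell.

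Most processome genes were lower with Congo Red in wild type cells. Of the 47 members 28 fell, 0 rose and 19 did not pass (limma with the biological sample as a block, Benjamini-Hochberg adjusted p under 0.05 over all genes). Over all genes tested 5.89% fell and 8.22% rose. The members' median difference, Congo Red minus no drug, was -0.39 on the log2 scale, beside -0.03 over all genes. The estimates ran from -0.84 for FAF1 to -0.09 for NOP58 and lay below 0 for all 47, as they did for 57.1% of all genes. In 45 members the difference was below 0 in each of the 3 samples, beside 32.8% of all genes. In 17 all treated arrays lay below all untreated ones, beside 10.2% of all genes.

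Only FAF1, UTP4 and FAL1 were lower by at least 1.5-fold, and 0 members by 2-fold. The median over the members was -0.28 in sample 1, -0.35 in sample 2 and -0.59 in sample 3. Sample 3 gave the largest fall in 42 members and sample 2 in the other 5.

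**Figure D1:**
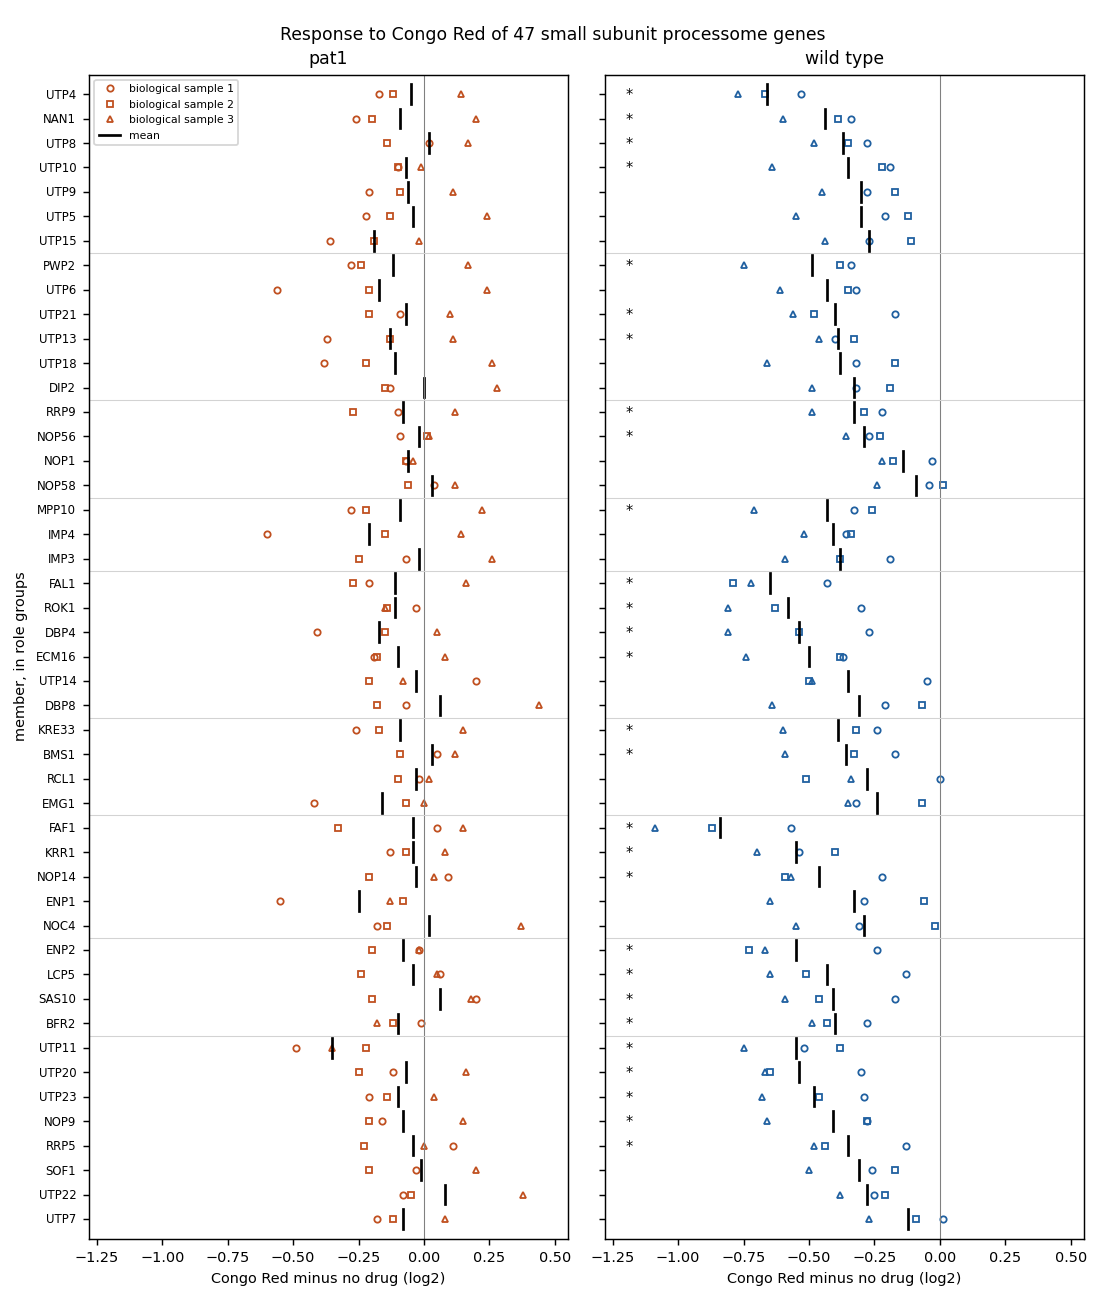
Difference in signal, Congo Red minus no drug (log2), of each of the 47 members in pat1 (left) and in wild type (right). Symbols are the 3 biological samples, black ticks their mean, grey lines separate role groups, and an asterisk marks the 28 members that fell in wild type (adjusted p under 0.05). In wild type the means lie between -0.84 and -0.09, and in pat1 between -0.35 and 0.08.

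The number of members called rested on the pairing and on single samples. Without the block the standard errors of the members were 0.11 to 0.26, against 0.07 to 0.14 with it, and only KRR1 and FAL1 fell, beside 0.239% of all genes. FAL1 had the lowest mean signal of the members, 8.48, and was among the dimmest 25% of genes. The count was 2 without wild type sample 3, 7 without sample 2 and 20 without sample 1, with medians of -0.29, -0.41 and -0.46. Without sample 3 UTP4 and FAF1 still fell, and KRR1, FAL1, UTP11 and ROK1 missed the threshold, at -0.61 to -0.45 (limma adjusted p = 0.0617 to 0.0791). Leaving out wild type sample 2 and pat1 sample 1, each with the URA3 signal on 1 of its 2 arrays, left 25. The pat1 samples enter the wild type test only through the shared estimate of the spread. Without pat1 sample 1, 2 or 3 the wild type count was 35, 20 and 36.

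FAF1 (YIL019W), whose product binds Krr1, had the largest difference of the members and the eighth largest fall of all genes by size. Its signals in wild type samples 1, 2 and 3 were 8.52, 7.89 and 8.22 with Congo Red, against 9.09, 8.76 and 9.31 without drug. The treated arrays all lay below the untreated ones. FAF1 thus fell by 0.84 ± 0.12 (SE, log2, n = 3 pairs; limma adjusted p = 0.00299, and 0.0576 without the block). KRR1 (YCL059C) encodes an RNA-binding protein with a KH domain. It gave 10.34, 10.21 and 10.27 with Congo Red, against 10.88, 10.60 and 10.97 without drug. Here too the groups did not overlap, and KRR1 fell by 0.55 ± 0.08 (limma adjusted p = 0.00424, and 0.0337 without the block). NOP14, an early-binding factor, completed the 3 falls among the 5 members of this group, at -0.46. ENP1, which stays on later small subunit precursors, had -0.33, and NOC4, a partner of Nop14, had -0.29, and neither passed.

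UTP4 (YDR324C) belongs to UtpA, the subcomplex that meets the nascent precursor first. Its signals were 9.80, 9.55 and 9.39 with Congo Red, against 10.33, 10.23 and 10.16 without drug, with no overlap. UTP4 fell by 0.66 ± 0.09 (limma adjusted p = 0.00207, and 0.138 without the block). Of the 7 UtpA genes 4 fell, the others being NAN1 (-0.44), UTP8 (-0.37) and UTP10 (-0.35). UTP5, UTP9 and UTP15 had -0.30, -0.30 and -0.27 and did not pass. UtpB binds after UtpA, and 3 of its 6 genes fell, namely PWP2 (-0.49), UTP21 (-0.40) and UTP13 (-0.39). UTP6, UTP18 and DIP2 had -0.43, -0.38 and -0.33.

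Of the helicase genes 4 of 6 fell (median -0.52), when UTP14, the cofactor of Ecm16, is counted with them. FAL1 (YDR021W) encodes a DEAD-box protein related to the translation factor eIF4A. Its signals were 8.38, 7.93 and 8.15 with Congo Red, against 8.81, 8.72 and 8.87 without drug. FAL1 fell by 0.65 ± 0.11 (limma adjusted p = 0.00575, and 0.0166 without the block). ROK1 (YGL171W) is a further DEAD-box helicase gene, with 10.05, 9.53 and 9.82 with Congo Red and 10.35, 10.16 and 10.63 without drug. All treated arrays of both genes lay below the untreated ones. ROK1 fell by 0.58 ± 0.10 (limma adjusted p = 0.00673, and 0.108 without the block). DBP4 fell by 0.54, and ECM16, the helicase that strips U3 from the precursor, fell by 0.50. UTP14 (-0.35) and DBP8 (-0.31) did not pass.

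UTP11 (YKL099C) gave 9.58, 9.31 and 9.17 with Congo Red, against 10.10, 9.70 and 9.92 without drug. It fell by 0.55 ± 0.09 with groups that did not overlap (limma adjusted p = 0.00619, and 0.179 without the block). In its group of RNA-binding and scaffold factors 5 of 8 fell. UTP20, a long repeat protein, was at -0.54, UTP23, a factor with a PIN domain, at -0.48, NOP9, an RNA-binding protein, at -0.41, and RRP5, which acts in both subunits, at -0.35. SOF1 (-0.31), UTP22 (-0.28) and UTP7 (-0.12, 95% interval -0.31 to 0.08) did not pass. All 4 genes of the group of LCP5, BFR2, ENP2 and SAS10 fell, with ENP2 at -0.55 and the others at -0.43 to -0.40.

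The 4 members that encode proteins of the U3 particle had the smallest median of the role groups, at -0.22. NOP56 fell by 0.29 and RRP9, which binds U3 in particular, fell by 0.33. NOP1, the methyltransferase fibrillarin, had -0.14 and NOP58 had -0.09, with adjusted p = 0.23 and 0.52 (limma). NOP1, NOP56 and NOP58 were bright, with mean signals of 12.5, 12.24 and 13.3, against 10.35 for RRP9. Whether differences are compressed at such signals was not tested. Of the Mpp10 complex MPP10 fell by 0.43, while IMP4 (-0.41) and IMP3 (-0.38) missed the threshold at adjusted p = 0.0621 and 0.0531. Among the enzymes, KRE33, which acetylates ribosomal RNA, fell by 0.39, and the GTPase gene BMS1 by 0.36. RCL1, the partner of Bms1, had -0.28, and the methyltransferase gene EMG1 had -0.24.

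**Figure D2:**
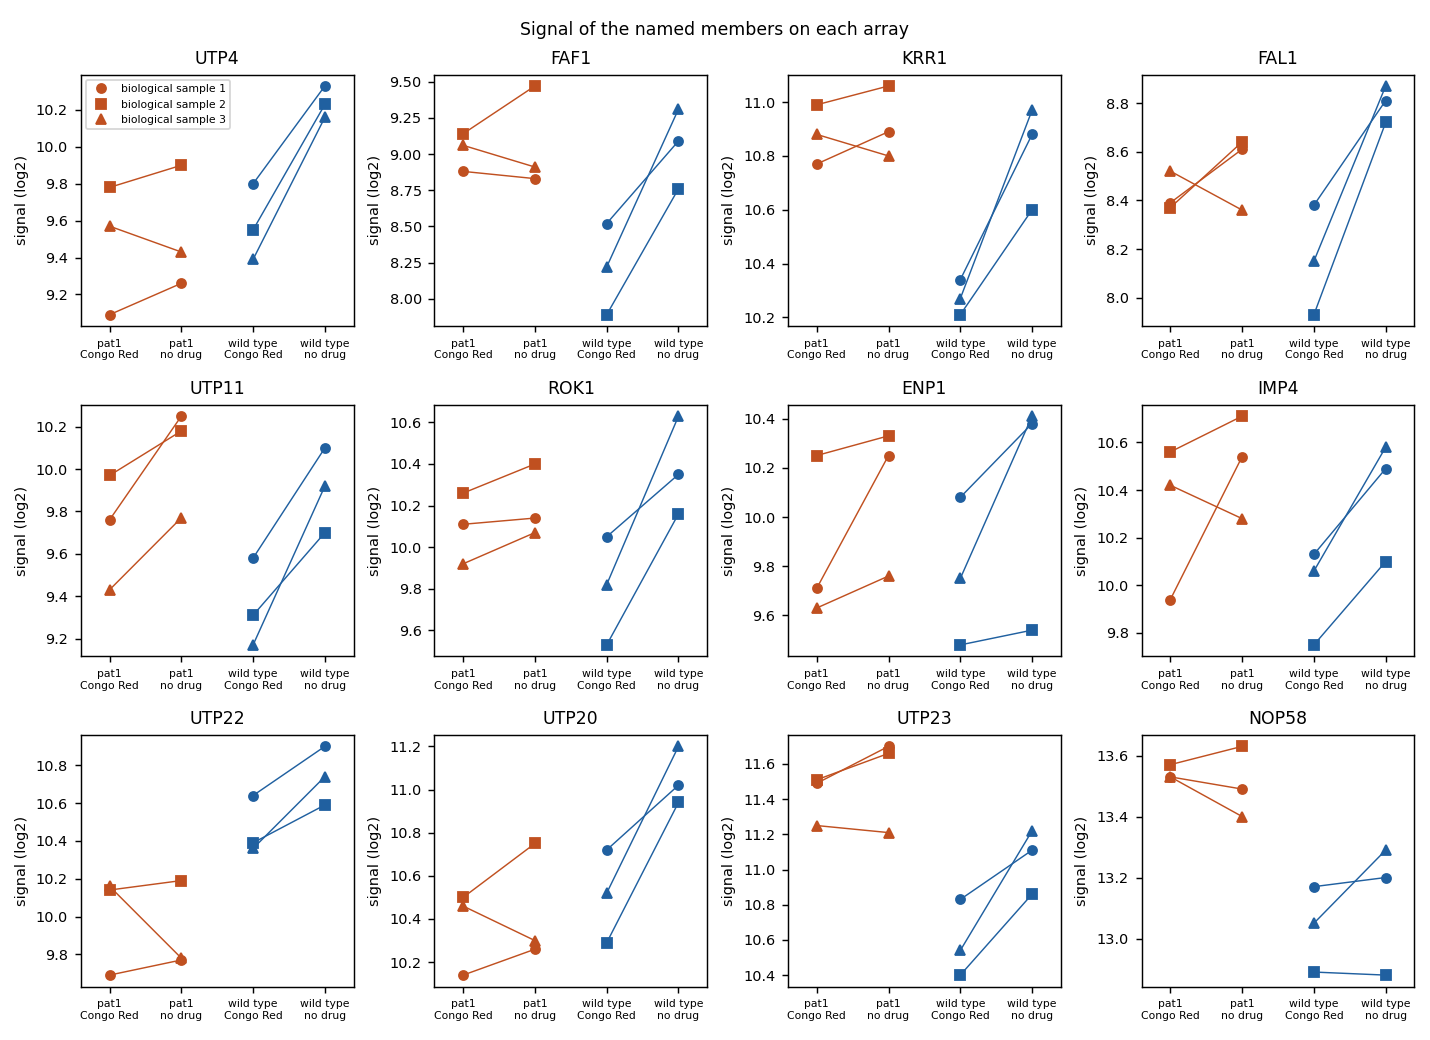
Signal (log2) of 12 members on each array, with lines joining the 2 arrays of a biological sample and symbols for samples 1 to 3. Each panel has its own axis range. In wild type every line of FAF1, KRR1, FAL1, UTP4, UTP11 and ROK1 is lower with Congo Red, and the UTP22 signals of all pat1 arrays lie below those of all wild type arrays.

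Genes next to the processome in the pathway were described with the same test. Of 26 further processome factors 13 fell and 0 rose, with a median of -0.36, led by DHR2 (-0.71), RRP36 (-0.55), BUD22 (-0.53) and ESF1 (-0.51). Of 11 later small subunit factors 5 fell, among them the kinase gene RIO1 (-0.56) and NOB1 (-0.47), the nuclease gene of the last cut. Of 53 large subunit assembly factors 32 fell (median -0.35), with SDA1 at -0.66 and IPI3 at -0.60. RNA polymerase I, which transcribes the precursor, had 5 of 16 genes lower (median -0.29), among them RPA34 (-0.45) and RRN3 (-0.43). Of the genes named so far in this paragraph only IPI3 passed without the block (limma adjusted p = 0.0498). The others had adjusted p = 0.0782 to 0.399 there (limma). Box H/ACA proteins, of the particles that carry out pseudouridylation, had 0 of 4 past the test (median -0.19).

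Ribosomal protein genes of the small subunit had a median of -0.06, and RPS19A (-0.39) was the only one of 52 that fell. Their median signals were 13.36 to 13.55 per array, near the highest signal in the table, 14.32. Box H/ACA genes were bright too, with medians of 12.38 to 13.21. Whether differences are compressed at such signals was not tested. Of the 52 estimates 51 lay below 0, against 57.1% of all genes. Groups did not overlap for 7 of the 52 that were lower, beside 10.2% of all genes. Among 19 regulators of ribosome biogenesis IFH1, a coactivator of ribosomal protein genes, fell by 0.26, and the other 18 did not pass.

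**Figure D3:**
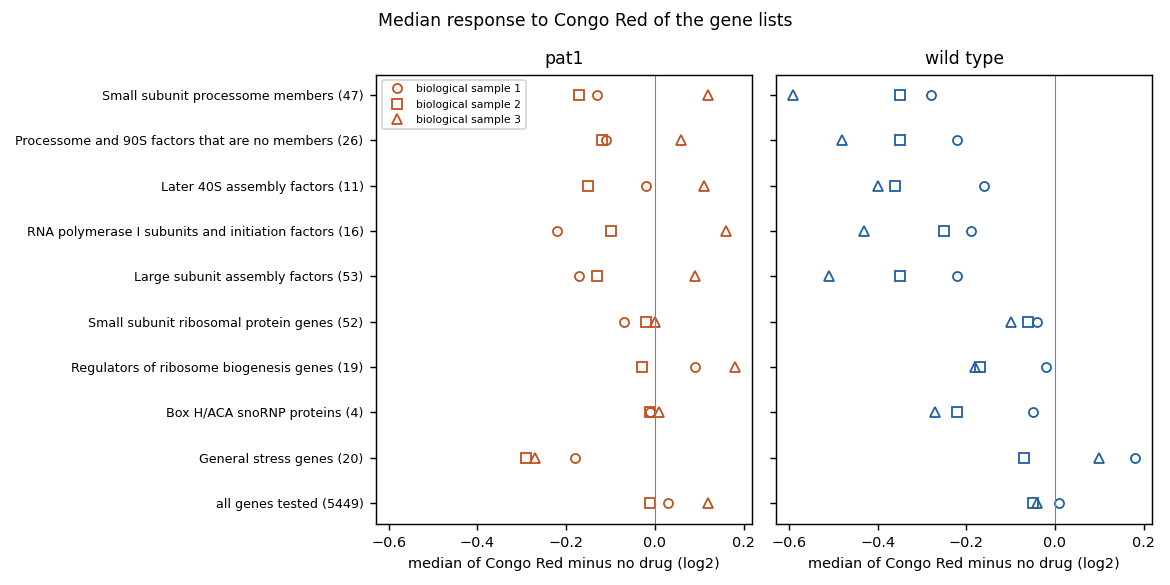
Median over each gene list of the difference Congo Red minus no drug (log2) in pat1 (left) and in wild type (right), with a symbol for each biological sample and the number of genes in brackets. In wild type the processome median is -0.28, -0.35 and -0.59, and that of small subunit ribosomal protein genes -0.04, -0.06 and -0.10.

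In the pat1 mutant 0 of the 47 members passed, and only UTP11 had an unadjusted limma p under 0.05, below which 4.73% of all genes were lower. Over all genes 0.349% fell and 1.96% rose. The members' median was -0.07, beside 0.04 over all genes, and 40 of the 47 estimates lay below 0, as did 38.7% of all genes. The members' median was -0.12 on arrays centred on their medians and -0.11 after quantile normalization. Samples differed in sign: the median of the members was -0.13 in sample 1, -0.17 in sample 2 and 0.12 in sample 3. Over all genes those medians were 0.03, -0.01 and 0.12, so in sample 3 the members stood at the median of all genes. Without pat1 sample 3 the members' median was -0.15 and 0 passed.

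UTP11 had the largest difference in pat1, with 9.76, 9.97 and 9.43 with Congo Red and 10.25, 10.18 and 9.77 without drug. It was lower in all 3 samples, with overlapping groups (-0.35 ± 0.09, limma adjusted p = 0.103). ENP1 (YBR247C) gave 9.71, 10.25 and 9.63 with Congo Red and 10.25, 10.33 and 9.76 without drug (-0.25 ± 0.13, limma adjusted p = 0.352). IMP4 (YNL075W), a U3-binding protein of the Mpp10 complex, gave 9.94, 10.56 and 10.42 with Congo Red and 10.54, 10.71 and 10.28 without drug (-0.21 ± 0.13, limma adjusted p = 0.431). ENP1 and IMP4 had their largest difference in sample 1. FAF1, KRR1 and UTP4, which fell in wild type, had -0.04, -0.04 and -0.05 in pat1, with 95% intervals of -0.32 to 0.23, -0.23 to 0.15 and -0.25 to 0.15.

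Whether the drug effect differed by strain was tested directly (effect in pat1 minus effect in wild type), and 0 of 47 members passed. Over all genes 0.0% passed above 0 and 0.0551% below 0. At an unadjusted limma p under 0.05, 21 members were above 0 and 0 below, beside 7.63% and 4.46% of all genes. All 47 estimates were above 0, as were 63.2% of all genes, and their median was 0.33 beside 0.06 over all genes. Neighbouring lists had the same sign, with 53 of 53 large subunit factors above 0 (median 0.29), 26 of 26 further processome factors (0.28) and 11 of 11 later small subunit factors (0.21), and 0 of these genes passed. Of the ribosomal protein genes 38 of 52 lay above 0 (0.02). FAF1 had the largest estimate of the members, 0.80 ± 0.17 (95% interval 0.41 to 1.19, limma adjusted p = 0.188). UTP4 had 0.61 ± 0.12 (0.32 to 0.89, adjusted p = 0.169) and FAL1 0.54 ± 0.15 (0.20 to 0.88, adjusted p = 0.309). Without pat1 sample 3 the members' median was 0.22, and without wild type sample 3 it was 0.24. For ENP1, EMG1 and UTP7 the estimates were 0.08, 0.08 and 0.04.

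General stress genes, which often move opposite to ribosome biogenesis genes, differed between samples as well. Of 20 such genes 4 rose and 1 fell in wild type, with NTH1 at 0.79 and HSP12 at 0.67. In pat1 4 fell and 0 rose, with DDR2 at -0.81 and CTT1 at -0.54. Without the block NTH1 still passed (limma adjusted p = 0.0125), while HSP12 (0.901), DDR2 and CTT1 did not. Their median signal was 9.91, 10.06 and 10.82 in pat1 samples 1, 2 and 3 with Congo Red, and 10.31, 10.30 and 11.33 without drug. In wild type it was 9.57, 10.43 and 9.46 with Congo Red, and 9.23, 10.47 and 8.78 without drug. Wild type sample 2 and pat1 sample 3 were the highest of their strains in both conditions.

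The median signal of the 47 members was 10.15, 10.39 and 10.31 in pat1 samples 1, 2 and 3 with Congo Red, and 10.31, 10.67 and 10.23 without drug. In wild type it was 10.39, 10.01 and 10.25 with Congo Red, and 10.65, 10.36 and 10.77 without drug. Wild type sample 2, with the highest stress genes, was the lowest of its strain in both conditions, and pat1 sample 3 was the lowest pat1 sample without drug. The part of this spread in the strain comparisons was not tested.

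**Figure D4:**
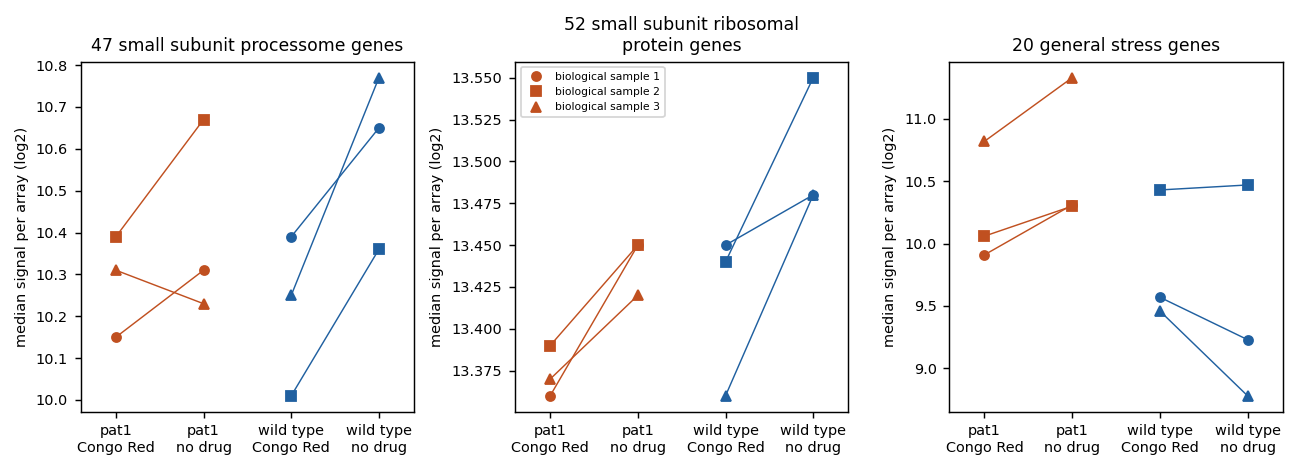
Median signal per array (log2) of the 47 processome genes, of 52 small subunit ribosomal protein genes and of 20 general stress genes, with lines joining the arrays of a biological sample. Axis ranges differ between panels. Processome medians lie between 10.01 and 10.77, ribosomal protein medians between 13.36 and 13.55, and stress medians between 8.78 and 11.33.

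Without drug few processome genes passed the test between pat1 and wild type. Of the 47 members 2 were lower in pat1 and 0 higher, that is UTP22 and UTP20, while 2.94% of all genes were lower and 3.51% higher (limma, 4 group means, no block). The median of the members was -0.16, beside -0.01 over all genes. Estimates ran from -0.83 to 0.45, with 31 below 0, as were 52.2% of all genes. For 5 members all pat1 arrays lay below all wild type arrays, beside 14.9% of all genes. The 20 general stress genes had a median of 1.09 in this comparison, with 19 above 0, and CTT1 (1.92) and GRE1 (1.33) were higher in pat1. Their part in the members' values was not tested.

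UTP22 (YGR090W), which forms the UtpC subcomplex with Rrp7 and casein kinase 2, had the largest strain difference. Its signals were 9.77, 10.19 and 9.78 in pat1, against 10.90, 10.59 and 10.74 in wild type. The pat1 arrays all lay below the wild type ones, and UTP22 was lower by log2 -0.83 ± 0.16 (SE, n = 3 arrays per group; limma adjusted p = 0.0184). IFH1, whose product binds UtpC in the CURI complex, was lower in pat1 by -0.66 ± 0.09 (limma adjusted p = 0.00424). Of the 19 regulators 3 were lower and 0 higher, the others being SCH9 (-0.57) and SIN3 (-0.53). The 26 further processome factors, which include RRP7 and the casein kinase 2 genes, had 0 lower and 2 higher. UTP20 (YBL004W) gave 10.26, 10.75 and 10.30 in pat1, against 11.02, 10.94 and 11.20 in wild type (-0.62 ± 0.16, limma adjusted p = 0.0481). UTP4 gave 9.26, 9.90 and 9.43 in pat1, against 10.33, 10.23 and 10.16 in wild type, and missed the threshold (-0.71 ± 0.20, adjusted p = 0.0547). For UTP22, UTP20 and UTP4 the groups did not overlap. UTP22 lost its call without wild type sample 1 or 3 or pat1 sample 3, and UTP20 without any of these, wild type sample 2 or pat1 sample 1. UTP4 passed without pat1 sample 2 (adjusted p = 0.0305).

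With Congo Red 4 members were higher in pat1 and 0 lower, beside 4.26% and 2.18% of all genes. They were UTP23, KRR1, NOP58 and FAF1. Over all genes 232 were higher and 119 lower, against 183 and 173 on arrays centred on their medians, where 4 members were still called higher. The median of the members was 0.18, beside 0.04 over all genes, and 37 estimates lay above 0, as did 56.7% of all genes. Groups did not overlap for 11 members that were higher and 1, UTP22, that was lower (18.2% and 11.5% of all genes). The general stress genes had a median of 0.52 here, with 15 of 20 above 0, and GRE1 (1.15) was the one called.

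UTP23 (YOR004W) gave 11.49, 11.51 and 11.25 in pat1 with Congo Red, against 10.83, 10.40 and 10.54 in wild type with Congo Red. It was higher by 0.83 ± 0.16 (limma adjusted p = 0.0148). KRR1 gave 10.77, 10.99 and 10.88 in pat1, against 10.34, 10.21 and 10.27 in wild type (0.61 ± 0.12, adjusted p = 0.0148, limma). FAF1 gave 8.88, 9.14 and 9.06 in pat1, against 8.52, 7.89 and 8.22 in wild type (0.82 ± 0.21, adjusted p = 0.0386, limma). NOP58 (YOR310C), a core protein of box C/D particles, gave 13.53, 13.57 and 13.53 in pat1, against 13.17, 12.89 and 13.05 in wild type (0.51 ± 0.12, adjusted p = 0.035, limma). In all 4 genes every pat1 array lay above every wild type array.

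Without drug none of these 4 genes passed (limma). UTP23 and NOP58 had 0.45 and 0.39 there (adjusted p = 0.115 and 0.083). KRR1 and FAF1 had 0.10 and 0.02 (adjusted p = 0.655 and 0.971), and their wild type signals fell with Congo Red. UTP22 was at -0.46 with Congo Red (adjusted p = 0.114), and UTP20 and UTP4 at -0.15 and -0.10. The comparisons share arrays, so these values are given side by side only.

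The count of 4 rested on single samples. It was 1 without wild type sample 1 or 2, 0 without wild type sample 3 or pat1 sample 2, and 2 without pat1 sample 1 or 3, with the estimates of the 4 genes between 0.44 and 0.97 in all of these. Leaving out the samples with URA3 signal on 1 array left 1.

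**Figure D5:**
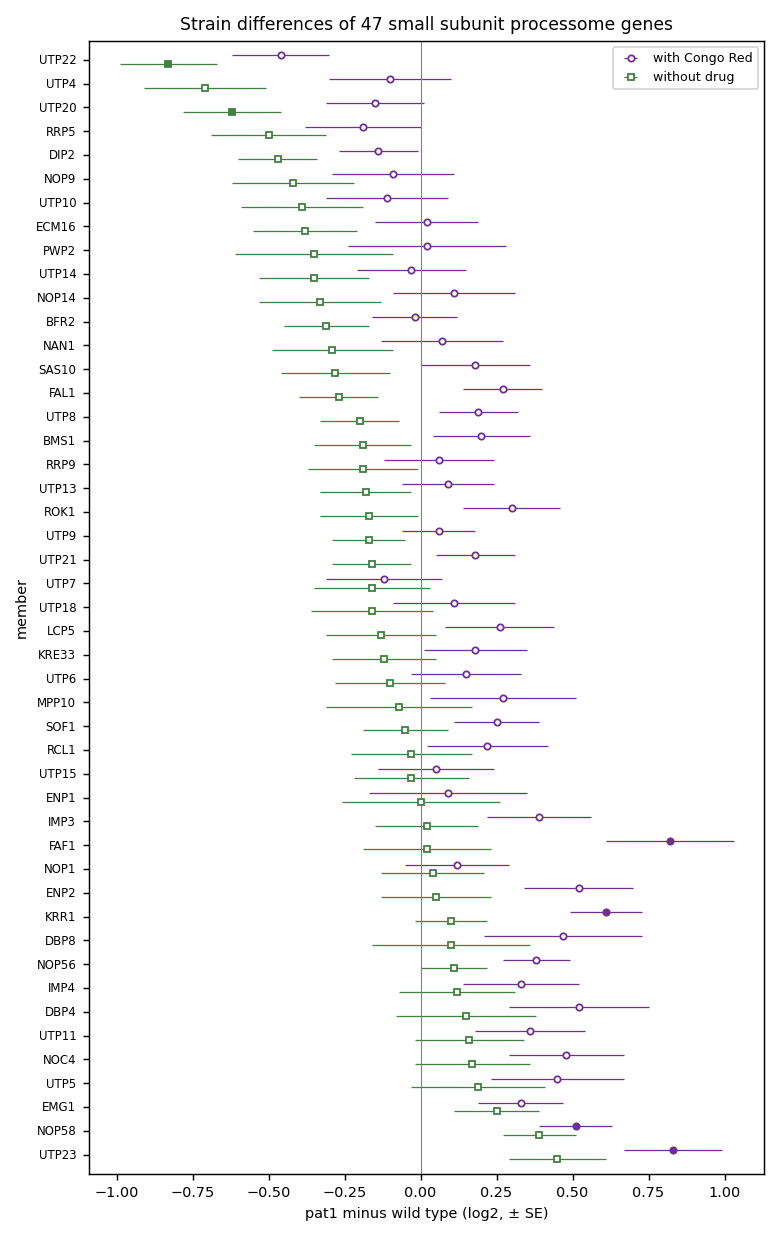
Difference pat1 minus wild type (log2, ± SE, n = 3 arrays per group) of each member with Congo Red (circles) and without drug (squares), sorted by the value without drug; filled symbols passed an adjusted p under 0.05. UTP22 lies lowest at -0.83 without drug and -0.46 with Congo Red, and UTP23 highest without drug at 0.45 and highest with Congo Red at 0.83.

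Neighbouring factors in the pathway were higher in pat1 with Congo Red in some lists. Of the 26 further processome factors 6 were higher and 0 lower (median 0.24), among them RRT14 (0.93), BUD22 (0.86), RRP36 (0.71) and NOP6 (0.71). Of these RRT14 and NOP6 were also higher without drug, at 0.47 and 0.56. Box H/ACA genes had 3 of 4 higher (median 0.54), namely NHP2 (0.59), CBF5 (0.54) and GAR1 (0.54). Without drug the 4 genes had a median of 0.31, and NHP2 was called higher there too (0.41). Large subunit factors had 5 of 53 higher, led by SPB1 (0.80) and LOC1 (0.76), and LOC1 was also higher without drug (0.53). Small subunit ribosomal protein genes had 0 of 52 past the test (median -0.05).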

How the data were processed

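The deposited table holds log2 signals per probe set that the authors made with RMA, per the submitters' processing notes; RMA's version and the genome build are not given in the sources used here. Of 5739 probe sets, 23 controls and 218 with no listed gene were left out. The other 5498 had 1 symbol each, 12 of them updated through the Entrez number with the RefSeq table of assembly R64. The brightest of a gene's probe sets was used (47 genes had several), and 1 member was matched through a synonym. No arrays were duplicated, and arrays of a group correlated at 0.975 to 0.995. The number of arrays limits the precision.

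R 4.3.3 with limma 3.58.1 (lmFit, eBayes) fitted all 5449 genes, with Python 3.11.15, pandas 2.3.3 and matplotlib 3.10.9 for the summaries. Drug effects were fitted with the biological sample as a block (4 residual degrees of freedom), as the series' design text describes 2 arrays per sample. Within a strain, arrays of the same number correlated at 0.616 to 0.801 in their deviations from group means, above the bound of 0.1. Arrays of different numbers reached 0.231 within wild type and 0.689 across strains. The bound thus does not tell pairs from other arrays, and the pairing rests on the design text. Strain effects came from 4 group means (8 residual degrees of freedom). This fit takes the 12 arrays as independent, though they come from 6 biological samples. The 2 arrays of a sample had a consensus correlation of 0.631. The degrees of freedom are therefore overstated, and the strain p-values can be too small. Intervals are at 95%. The fits of the drug effect in wild type and of the strain difference without drug were run on simulated data. The planted shifts were larger than any member's estimate. Detection at the sizes seen here and the other comparisons were not tested in this way.

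Members given with every array were, per comparison, the 6 with the lowest p per direction among those past the test, or, with fewer than 3, the 3 largest differences. Of other lists, up to 4 genes past the test were named. The members, lists and alternatives were chosen with earlier results of these data known. The alternatives were other or no blocks, centred or quantile normalized arrays, no dim genes, trended and robust eBayes, the mean of probe sets, a stricter threshold, and samples left out.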

Additional observations from a re-analysis of the deposited data

How the results depend on the processing

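The members' medians moved by less than the spread between samples in every alternative run, but many of these runs could hardly give another outcome. A mean with a sample left out can hardly move by more than that spread, and other or no blocks leave the estimates unchanged. The bound is therefore no test of stability for those runs. No named member changed sign in any alternative run that held it, and FAL1 was not in the run without dim genes. With samples left out, the median in wild type ran from -0.46 to -0.29, in pat1 from -0.15 to -0.02, and the difference in response from 0.22 to 0.40. The strain medians ran from -0.25 to -0.02 without drug and from 0.08 to 0.30 with Congo Red. The 28 members lower in wild type became 2 with no replicate block and 7 at an adjusted p under 0.01, where the cause is the stricter bound. With samples left out the count ran from 2 to 36, and it was 18 without wild type sample 2 and pat1 sample 3. Centred, quantile normalized, dim-filtered and trended fits gave 31, 31, 32 and 36. In pat1 and in the difference in response the count was 0 in all alternatives.

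Of the 2 members lower in pat1 without drug, 0 to 3 were called with samples left out, 4 without the dimmest 25% of genes and 0 at 0.01, and trended eBayes added 1 higher. The 4 members higher in pat1 with Congo Red became 0 at 0.01 and 0 to 2 with samples left out. Numbers are shared between strains but do not pair them, with correlations of -0.547 to 0.264 between same-numbered arrays. The replicate block by number gave 1 lower without drug and 4 higher with Congo Red, and the random replicate block 2 and 4; UTP20 lost its call in both and FAF1 in the block by number (adjusted p = 0.0654, 0.0582 and 0.0627, limma). The cause of the changes other than those named was not tested. Over all genes the calls in wild type were 448 higher and 321 lower, against 133 and 13 without the block, and in pat1 107 and 19, against 36 and 0. Trended eBayes gave 170 and 45 in pat1, and 1 and 21 for the difference in response, against 0 and 3. At 0.01 the counts were 221 and 60 in wild type, 46 and 2 in pat1, 24 and 22 between strains without drug (191 and 160 at 0.05) and 50 and 17 with Congo Red (232 and 119 at 0.05). Without wild type sample 1 the strain counts were 10 and 9 without drug and 60 and 17 with Congo Red.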
